A study of Mus musculus with 8 samples.

Results

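Genes of the STAT3 and SOCS feedback circuit were followed across the libraries and cell clusters of a single-cell RNA experiment on mouse helper T cells. The 7 genes, Stat3, Socs1, Socs3, Cish, Bcl3, Pim1 and Pim2, were fixed by name, and all 7 were found among the 16649 gene symbols of the deposited count matrix. All 7 also passed the filter on low counts. CD4 T cells from spleens of female mice aged 10 weeks, either wild type (WT) or lacking Gpr65 (KO), were polarized in culture toward Th17 or Th22 and harvested on day 3. Gpr65 encodes a proton-sensing G protein-coupled receptor. Both kinds of culture held IL-1b at 20 ng/ml and IL-23 at 20 ng/ml. IL-6 was used at 25 ng/ml for Th17 and at 40 ng/ml for Th22, in the latter case together with FICZ, which activates the aryl hydrocarbon receptor (AHR), at 400 nM. The IL-6 dose and FICZ therefore cannot be told apart in any Th22 against Th17 comparison. Each of the 4 groups had 2 libraries, made with a 10x Genomics 3' kit in which reads are collapsed to molecules by a barcode, the UMI. The labels do not give the kind of Gpr65 allele, the background strain, or whether libraries 1 and 2 of a group came from separate mice, and so the p-values reflect differences among libraries that may be technical in origin.

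IL-6 binds its receptor and the shared chain gp130, JAK kinases then phosphorylate STAT3, and STAT3 enters the nucleus and switches on genes of the Th17 program. Among the genes that STAT factors induce are SOCS3, which blocks gp130 and its JAK, SOCS1, which blocks JAK kinases, and CISH, which is induced mainly by STAT5 downstream of IL-2 and also acts in T cell receptor signalling. BCL3 is an atypical IkB protein that binds NF-kB p50 and p52 in the nucleus. PIM1 and PIM2 are serine/threonine kinases that are active once made, so that their level depends largely on transcription and turnover. The levels of these genes are used in helper T cells as a readout of cytokine signalling.

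Promoters of the members were searched for the spaced palindrome bound by activated STAT dimers, TTCNNNGAA, which reads the same on both strands, and for the variant with 1 more base in the spacer, TTCNNNNGAA. Each RefSeq promoter window (build GRCm38.p6) held 300 bases, from 250 before to 50 after the annotated start. The 7 members had 8 windows, Pim1 having 2. TTCNNNGAA was present in the windows of Cish and Socs3 and in no window of the other 5 members, and it was present in 8.30% of all 32851 promoter windows. TTCNNNNGAA was found in no member and in 6.95% of all windows. The Cish window lies at chr9:107296409-107296708 on the plus strand and holds the motif at window positions 251 and 262, next to each other at the start. The Socs3 window lies at chr11:117969317-117969616 on the minus strand and holds it at position 97. The Pim2 window, at chrX:7878056-7878355 on the plus strand, holds neither and is shown because Pim2 was the member that differed between the genotypes. Capitals mark TTCNNNGAA, and positions count from the 5' end of the window.
Cish: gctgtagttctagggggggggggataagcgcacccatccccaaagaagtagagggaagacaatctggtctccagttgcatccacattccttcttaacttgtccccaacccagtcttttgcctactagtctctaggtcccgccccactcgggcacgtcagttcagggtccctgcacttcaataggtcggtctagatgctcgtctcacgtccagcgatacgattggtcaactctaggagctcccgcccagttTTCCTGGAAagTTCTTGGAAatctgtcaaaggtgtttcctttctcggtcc
Socs3: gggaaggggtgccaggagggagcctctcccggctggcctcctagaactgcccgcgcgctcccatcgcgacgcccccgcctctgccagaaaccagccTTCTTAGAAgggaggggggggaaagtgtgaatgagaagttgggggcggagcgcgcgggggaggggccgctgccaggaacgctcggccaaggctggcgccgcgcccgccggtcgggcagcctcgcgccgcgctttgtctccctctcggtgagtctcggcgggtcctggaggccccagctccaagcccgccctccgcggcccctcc
Pim2: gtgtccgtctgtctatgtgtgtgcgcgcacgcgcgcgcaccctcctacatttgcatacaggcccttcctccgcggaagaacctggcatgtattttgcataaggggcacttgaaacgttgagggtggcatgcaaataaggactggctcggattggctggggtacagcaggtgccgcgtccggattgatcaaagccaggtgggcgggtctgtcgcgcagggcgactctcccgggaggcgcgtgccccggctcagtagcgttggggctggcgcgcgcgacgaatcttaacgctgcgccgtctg

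The genes lie on 6 chromosomes of mm10 (GENCODE positions). Stat3 is on chromosome 11 from 100885098 to 100939540, minus strand, and its 3' end overlaps the end of Stat5a on the other strand. Socs3 is on the same chromosome from 117966079 to 117970047, minus strand. Socs1 is on chromosome 16 from 10782240 to 10785536, minus strand, and Cish on chromosome 9 from 107296026 to 107302784, plus strand. Bcl3 is on chromosome 7 from 19808462 to 19822770, minus strand, Pim1 on chromosome 17 from 29490753 to 29496112, plus strand, and Pim2 on chromosome X from 7878262 to 7883432, plus strand. Bcl3, Cish and Pim1 overlap genes annotated on the opposite strand. No source used here says whether counting was strand-specific. The matrix counts Stat5a, and Gm26885, which overlaps Pim1, as genes of their own. Whether any reads of overlapping genes entered the counts of Stat3, Bcl3, Cish and Pim1 was not tested.

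Kept cells numbered 101688, with 9969 to 15119 per library, 33826527 to 58895019 UMIs per library and a median of 2354 to 4142 UMIs per cell. Of 103384 barcode sequences, 1269 (1.23%) occurred in more than 1 library. Gpr65 was at 50.6 to 72.9 CPM (counts per 1000000 UMIs of a library after TMM scaling) in the WT libraries and at 0.9 to 1.6 CPM in the KO libraries. The AHR target Tiparp was at 13.3 to 22.9 CPM in Th17 and at 47.2 to 71.1 CPM in Th22 libraries. The 8 T cell markers summed to 3309 to 4973 CPM, against 10.0 to 13.5 CPM for 2 CD8 markers, 17.9 to 48.2 for 6 markers of gamma-delta T and NK cells, 26.7 to 47.5 for 5 B cell markers and 18.1 to 31.0 for 4 myeloid markers. Both KO libraries numbered 1 stood apart from those numbered 2 for several members, which is described below with each result.

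No member of the circuit passed the main unblocked tests on library sums between Th22 and Th17 cultures, which held different doses of IL-6. Calls within clusters and in alternative fits, blocks among them, are given further below. In the test over both genotypes, 0 of the 7 members passed edgeR's quasi-likelihood test at an adjusted p under 0.05, while 1.94% of all 13412 genes did. Within WT alone and within KO alone 0 of 7 passed, against 0.149% and 0.119% of all genes. At an unadjusted p under 0.05, 1 member, Cish, differed over both genotypes, and DESeq2 called 0 of the 7.

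Stat3, the transcription factor itself, was at 69.9 and 75.6 CPM in WT Th17, 60.8 and 64.3 in WT Th22, 69.1 and 62.4 in KO Th17, and 65.2 and 63.3 in KO Th22. Both WT Th22 libraries were below both WT Th17 libraries, and the KO libraries overlapped. The log2 fold change of Th22 over Th17 across both genotypes was -0.13 ± 0.07 (SE), with a 95% confidence interval of -0.29 to 0.04 and an adjusted p of 0.50. Stat3 was called within WT when genotype and library number were a block, as were 1733 of all genes.

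Socs3, the inhibitor of gp130 signalling, was at 40.3 and 38.4 CPM in WT Th17 and at 38.7 and 38.2 CPM in WT Th22. The WT libraries were close together in both cultures. In KO it was at 24.5 and 34.1 CPM in Th17 and at 31.0 and 49.7 CPM in Th22, with overlap between the cultures. The log2 difference of Th22 from Th17 was -0.03 in WT (95% interval -0.57 to 0.50, adjusted p = 0.99) and 0.46 in KO (interval -0.08 to 1.0, adjusted p = 0.54). The difference between these, the interaction of genotype and culture, was 0.49 with a 95% interval from -0.26 to 1.3 and an adjusted p of 1.0. In that unblocked test edgeR called 0 of the 13412 genes (0.0%), where 566 had an unadjusted p under 0.05, and DESeq2 called 12. With genotype and library number as a block, Socs3 was called for the interaction, as were 550 of all genes. Those values are in the closing section, and the labels do not say that the numbers mark a shared animal.

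Socs1, the inhibitor of JAK kinases, was at 93.6 and 92.7 CPM in WT Th17 and at 109.4 and 109.1 CPM in WT Th22. The KO levels were 49.8 and 85.1 CPM in Th17 and 61.5 and 115.0 CPM in Th22. Th22 was above Th17 at each library number, although the KO libraries of the cultures overlapped. Over both genotypes the log2 difference was 0.31 ± 0.21 (SE), with an interval of -0.16 to 0.78 and an adjusted p of 0.56. Without both KO libraries numbered 1, which leaves 1 KO library per culture, the estimate was 0.30. In the fit blocked by genotype and library number, Socs1 was called in WT, in KO and over both genotypes. That fit called 1733, 2269 and 1592 of all genes, and the labels do not say that the numbers mark a shared animal.

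Cish, the STAT5-induced family member, was at 124.6 and 119.3 CPM in WT Th17, 114.4 and 107.5 in WT Th22, 127 and 130 in KO Th17, and 105.4 and 119.1 in KO Th22. Every Th22 library was below every Th17 library, though the highest Th22 value (119.1) nearly met the lowest Th17 value (119.3), and 3.13% of all genes had this ordering in this direction. In KO alone Cish was the 1 member without overlap, lower in Th22 as were 16.5% of all genes. The log2 difference over both genotypes was -0.17 ± 0.07 (SE; interval -0.32 to -0.02), and its adjusted p was 0.29. Cish was called within KO when genotype and library number were a block, as were 2269 of all genes.

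Bcl3, the NF-kB cofactor, and the kinase genes Pim1 and Pim2 had estimates with intervals that span 0. Their log2 differences of Th22 from Th17 over both genotypes were -0.09 for Bcl3 (interval -0.27 to 0.09), 0.01 for Pim1 (interval -0.33 to 0.36) and -0.07 for Pim2 (interval -0.35 to 0.21), and none passed the edgeR test. In WT alone, Stat3, Cish and Bcl3 were lower in both Th22 libraries than in both Th17 libraries, and Socs1 was higher. With 2 libraries against 2, 22.9% of all genes were lower without overlap and 23.9% higher in that comparison, so 3 and 1 of 7 are not set apart from the background.

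**Figure D1:**
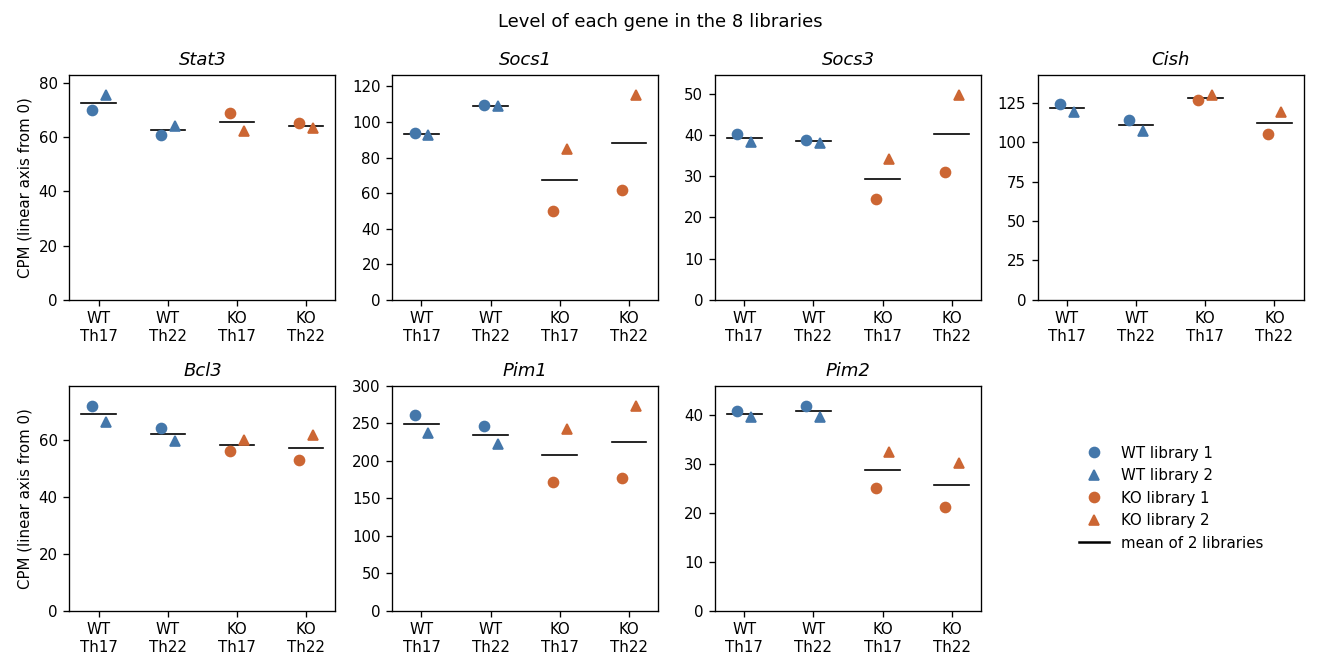
Each panel shows 1 gene, with its level in CPM on a linear axis from 0, for the 2 libraries (circle, number 1; triangle, number 2) of each group and their mean as a line. The 4 KO values of Pim2 (21.3 to 32.5 CPM) lie below the 4 WT values (39.7 to 41.9 CPM), and the KO circles of Socs1, Socs3 and Pim1 lie below the other libraries.

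The kinase gene Pim2 was lower in KO than in WT cells in both cultures, and it was the member that passed the genotype test. It was at 40.9 and 39.7 CPM in WT Th17 and 41.9 and 39.7 CPM in WT Th22, against 25.1 and 32.5 CPM in KO Th17 and 21.3 and 30.3 CPM in KO Th22. All 4 KO libraries were below all 4 WT libraries, which held for 5.13% of all genes in this direction. Over both cultures the difference of KO from WT on the log2 scale was -0.57 ± 0.13 (SE), with a 95% interval of -0.86 to -0.29, which is a level of 0.672 times WT. The adjusted p of edgeR's quasi-likelihood test was 0.048. This is 1 of 7 members called, all lower, where 2.93% of all genes were called and 1.52% were called lower. In library sums, fewer cells that express a gene and less RNA per cell cannot be told apart.

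Some cell type markers moved with genotype in the same test. Of 8 T cell markers, 7 had estimates below 0, with a median of -0.22, and 1 was called. This was Cd4, the helper T cell coreceptor, at 113.9 to 124.4 CPM in WT and 84.9 to 103.3 CPM in KO, a log2 difference of -0.36 (adjusted p = 0.044). The T cell markers summed to 4051 to 4973 CPM in WT and 3309 to 4647 CPM in KO, with overlap. Of 5 B cell markers 3 were tested and 1 was called, Ighm, an immunoglobulin heavy chain gene, with a log2 difference of -0.47 (adjusted p = 0.024). All 6 cycling markers had estimates below 0, with a median of -0.13, and 0 were called. Cd4 and Ighm were named after their values were seen, and the part of these markers in the Pim2 result was not tested.

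The Pim2 difference kept its direction in all 21 alternatives tried, with log2 values from -0.67 to -0.37, but it kept its adjusted p under 0.05 in only 11 of them. The adjusted p was 0.149 without WT Th17 library 1, 0.118 without WT Th17 library 2, 0.132 without WT Th22 library 1, 0.164 without WT Th22 library 2 and 0.126 without KO Th17 library 1. Without both KO libraries numbered 1, which leaves 1 KO library per culture, the log2 difference was -0.37. DESeq2 gave an adjusted p of 0.0018, in a test where it called 514 genes higher and 401 lower out of 13740. The main edgeR fit called 189 higher and 204 lower out of 13412. Over the 10 alternatives that ended the call, the adjusted p ran from 0.059 to 0.447. The highest came from edgeR with the 2 libraries of each genotype and number summed, where 6 of all genes were called. Within Th17 alone the log2 difference was -0.49 (interval -0.92 to -0.06, adjusted p = 0.35) and within Th22 alone -0.66 (interval -1.09 to -0.23, adjusted p = 0.27), so it did not pass in either culture by itself. In these comparisons 0 of 7 members were called, against 0.186% of all genes in Th17 and 0.149% in Th22.

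None of the other 6 members passed the genotype test. Socs1, Socs3 and Pim1 had lower means in KO, with wide spread. Their log2 differences over both cultures were -0.39 ± 0.21 for Socs1 (SE; interval -0.85 to 0.08), -0.18 ± 0.17 for Socs3 (interval -0.57 to 0.21) and -0.16 ± 0.15 for Pim1 (interval -0.50 to 0.18), with adjusted p from 0.35 to 0.63. Pim1 was at 260.7 and 236.4 CPM in WT Th17, 245.6 and 222.8 in WT Th22, 171.8 and 242.8 in KO Th17, and 176.3 and 272.8 in KO Th22. The KO values of Pim1 thus lay on both sides of the WT values.

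Bcl3 was at 72.1 and 66.4 CPM in WT Th17, 64.4 and 59.9 in WT Th22, 56.4 and 60.3 in KO Th17, and 53.0 and 61.9 in KO Th22. The genotypes overlapped in Th22. Its log2 difference of KO from WT was -0.18 ± 0.08 (SE; 95% interval from -0.36 to just below 0), and the adjusted p was 0.25. Stat3 (-0.05, interval -0.22 to 0.11) and Cish (0.05, interval -0.10 to 0.20) had the estimates nearest to 0.

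In Th17 alone, Stat3, Socs1, Socs3, Bcl3 and Pim2 were lower in both KO libraries than in both WT libraries and Cish was higher, where 21.7% of all genes were lower without overlap and 20.9% higher. In Th22 alone Pim2 was the single member without overlap, where 21.8% of all genes were lower in that way. The 2 comparisons share no library, but the spread was estimated from all 8 libraries for both. KO libraries of the same number also differed alike in both cultures for Socs1, Socs3, Pim1 and Pim2, as described below. The 2 are therefore not independent tests. Their log2 differences in Th17 and Th22 were -0.42 and 0.07 for Socs3, -0.47 and -0.31 for Socs1, and -0.26 and -0.06 for Pim1. They were -0.25 and -0.11 for Bcl3, -0.14 and 0.04 for Stat3, and 0.08 and 0.02 for Cish.

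**Figure D2:**
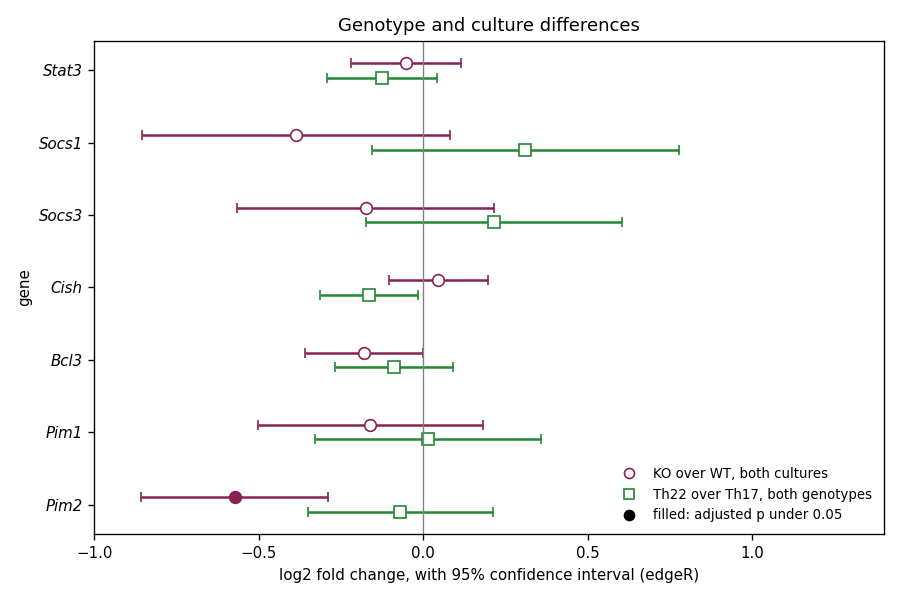
Points give the log2 fold change of each gene for KO over WT across both cultures (circles) and for Th22 over Th17 across both genotypes (squares), with 95% confidence intervals as bars, and a filled symbol has an adjusted p under 0.05. The Pim2 genotype difference of -0.57 is the filled one, and the intervals of Socs1 and Socs3 are the widest.

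The spread within KO followed the library number in both cultures. Socs1, Socs3, Pim1 and Pim2 were at least 1.2 times higher in KO library 2 than in KO library 1 in Th17 and again in Th22, and 0 of the 7 members were so in WT. Over all tested genes this pattern was seen in 16.8% of genes in KO and in 5.33% in WT. Among the 4376 genes averaging 20 CPM or more it was seen in 13% and 1.81%. Socs1 went from 49.8 to 85.1 CPM in Th17 and from 61.5 to 115.0 CPM in Th22, which are the largest ratios among the 7.

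Markers of gamma-delta T and NK cells moved with these libraries, at 40.2 and 48.2 CPM in the KO libraries numbered 1 against 17.9 and 25.0 CPM in those numbered 2 and 21.2 to 36.9 CPM in WT. These are sums of 6 markers out of a list of 7, the most abundant being Trdc and Klrd1, and Klrb1c was at 0 in 3 of the KO libraries. Their part in the result was not tested. With the authors' 12 clusters given the same weight in every library, the KO libraries numbered 1 were still the lowest for these genes. Socs1 was then at 54.2 and 65.2 CPM in them against 95.6 to 112.9 in WT, Socs3 at 25.9 and 30.4 against 37.8 to 41.8, Pim1 at 180.4 and 175.5 against 228.7 to 270.3, and Pim2 at 26.1 and 19.8 against 38.9 to 42.5. Without both KO libraries numbered 1, the log2 differences of KO from WT over both cultures were 0.10 for Socs3 and 0.10 for Pim1, and neither was called.

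**Figure D3:**
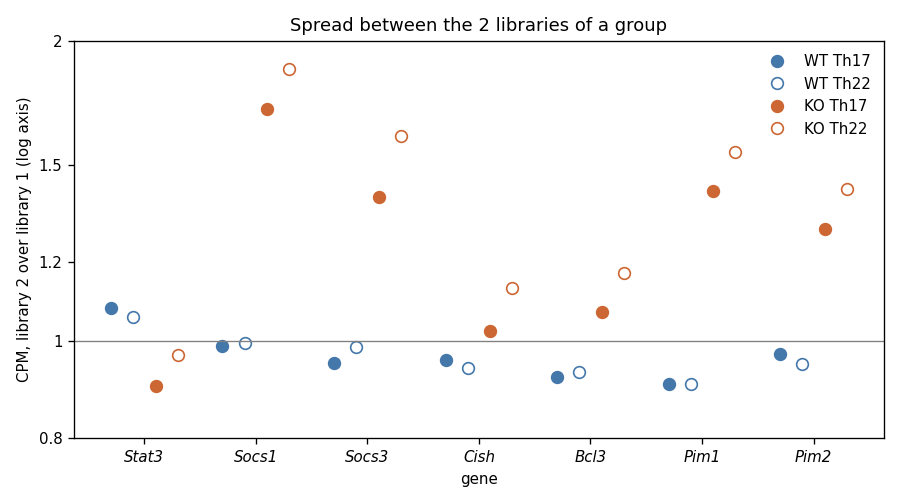
The ratio of CPM in library 2 to CPM in library 1 of the same group is shown on a log axis for each gene, for WT (blue) and KO (orange) and for Th17 (filled) and Th22 (open). WT ratios lie near 1 for all 7 genes, and KO ratios are at least 1.2 in both cultures for Socs1, Socs3, Pim1 and Pim2.

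The share of cells with at least 1 UMI gave the same order for Pim2. After each cell was thinned to 1500 UMIs, which left 93046 cells, Pim2 was detected in 5.74% to 6.08% of cells in the 4 WT libraries and in 3.03% to 4.96% in the 4 KO libraries, without overlap. Before thinning the ranges were 10.7% to 14.0% and 6.64% to 9.76%. These shares come from the same UMIs as the Pim2 levels above. How many of all genes separate the genotypes in this way was not counted. Socs3 was detected in 5.93% to 6.16% of thinned WT cells and in 3.76% to 7.12% of thinned KO cells, Socs1 in 12.6% to 14.9% and 7.29% to 14.6%, and Pim1 in 27.9% to 31.6% and 21.3% to 29.9%. Each of these 3 genes overlapped between the genotypes. No cluster is known to lack these genes, so the share that free RNA contributes was not measured.

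For each pair, the share of cells with the second gene was compared between cells with and without the first, within libraries and over thinned cells. The share of cells with Cish was 1.1 to 1.6 times as high in cells with Socs1 as in cells without it. The median of this ratio over the 8 libraries was 1.30. For Pim1 and Pim2 the median ratio was 1.24, with a range of 0.92 to 1.45 that spans 1. Socs3 and Pim1 gave 1.1 to 1.4 with a median of 1.23. Stat3 and Socs1 had a median of 1.02. These ratios describe the libraries and carry no test.

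The authors' deposited table assigned each cell to 1 of 12 clusters, numbered 0 to 11. Levels between clusters are given as a description, since the clusters were made from the same cells. CPM within a cluster is relative to the summed UMIs of that cluster in that library, without TMM scaling. Cluster 7, led by Trdc, Tcrg-C4 and Gzmc, had the highest mean for Socs1, Socs3, Bcl3, Pim1 and Pim2. Cluster 8, led by interferon-induced genes such as Isg15 and Ifit1, had the highest mean for Stat3 and Cish. Cluster 9 had the lowest mean for Stat3, Cish, Bcl3, Pim1 and Pim2, cluster 4 for Socs3 and cluster 0 for Socs1.

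Pim2 varied most between clusters, with a ratio of 3.53 between the highest and lowest means. Cluster 9, with only 53 to 117 cells per library, was lowest at 21.3 ± 13 CPM (SD, n = 8 libraries). Cluster 7 was highest at 75 ± 21.5 CPM. The next clusters in order were 5 at 45.6 ± 15 and 8 at 40.5 ± 16.6 CPM, which differ from each other by less than their spread. Cluster 2, led by Il17a, Il17f, Il22 and Il24, was at 39.8 ± 12.6 CPM for Pim2. Socs1 went from 57.7 ± 17.8 CPM in cluster 0, led by Vps37b and also marked by Klf2, to 148.0 ± 28.7 in cluster 7. Cluster 1, led by Rgs16, Ccl4 and Spp1, followed at 122.2 ± 30.6 CPM for Socs1, with overlapping spread.

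Socs3 was at 52.8 ± 8.3 CPM in cluster 7 and 48.5 ± 8.9 in cluster 5, and at 21.7 ± 5.4 in cluster 4. Cish was at 170.1 ± 16.2 CPM in cluster 8, 150.6 ± 12.9 in the Il17a-led cluster 2 and 91.1 ± 30.9 in cluster 9. Pim1 was at 321.7 ± 31.1 CPM in cluster 7 and 315.2 ± 39.6 in cluster 8, against 137.3 ± 16.6 in cluster 9. Bcl3 ranged from 41.0 ± 17.9 to 83.5 ± 13.6 CPM, and Stat3, with the smallest ratio of 1.68, from 48.2 ± 29.4 to 80.9 ± 16.1 CPM. Neighbouring clusters in each of the 7 orders differed by less than their summed SDs, with 1 exception, Pim1 between cluster 10 at 204.9 ± 38.6 CPM and cluster 9.

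**Figure D4:**
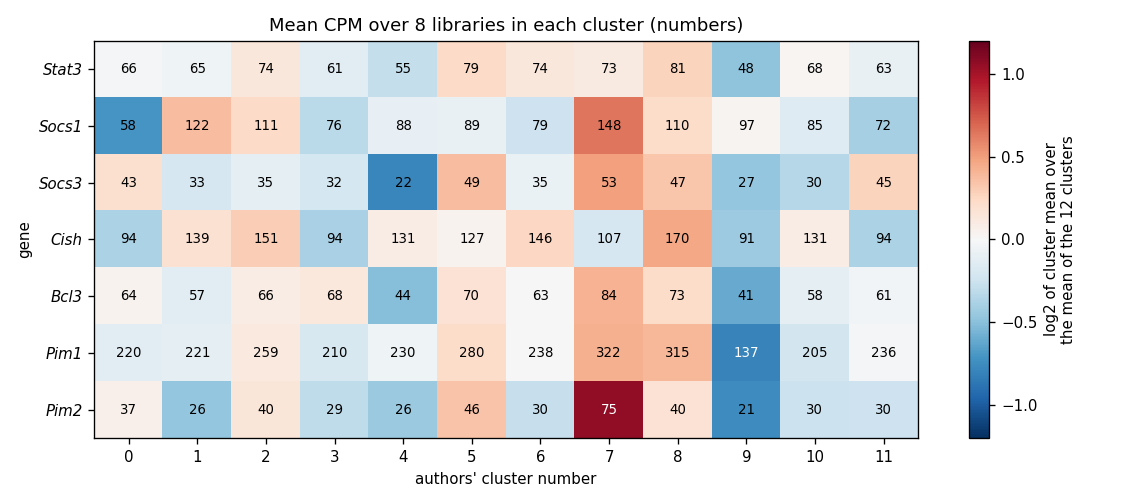
Rows are the 7 genes and columns the authors' 12 clusters, numbers are mean CPM over the 8 libraries, and color is the log2 ratio of a cluster's mean to the mean of the 12 clusters. Pim2 in cluster 7 (75 CPM) is the deepest red, and Socs1 in cluster 0 (57.7 CPM) and Socs3 in cluster 4 (21.7 CPM) are among the deepest blue.

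The lower Pim2 level in KO was seen inside clusters. Sums over the cells of each library and cluster were tested cluster by cluster, and Pim2 passed the low-count filter in 10 of the 12. Its estimate of KO over WT across both cultures was below 0 in 10 of 10, from -0.87 to -0.21, and edgeR called it in 4. Estimates were also below 0 for Socs1 in 12 of 12 clusters, Pim1 in 11 of 12 and Bcl3 in 10 of 11. For Stat3, Socs3 and Cish this held in 9 of 12, 8 of 11 and 7 of 12. The clusters share the same libraries, and the share of all genes with 1 sign in every cluster was not counted. In cluster 1 Pim2 was at 33.1 to 33.7 CPM in the 4 WT libraries, and in KO at 18.3 and 25.0 in Th17 and 13.2 and 18.5 in Th22, a log2 difference of -0.80 ± 0.15 (SE; adjusted p = 0.0084). The log2 differences were -0.70 in the Il17a-led cluster 2 (adjusted p = 0.016), -0.87 in cluster 4 (adjusted p = 0.017) and -0.67 in cluster 7 (adjusted p = 0.036). Of all genes tested, edgeR called 7.43% in cluster 1, 2.40% in cluster 2, 0.818% in cluster 4 and 0.247% in cluster 7, and 0.198% to 1.23% in the 6 clusters where Pim2 was tested and not called. Whether the difference varies between clusters was not tested.

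In cluster 7 Pim2 was at 85.1 and 86.2 CPM in WT Th17 and 108.6 and 91.7 in WT Th22, against 47.5 and 50.7 in KO Th17 and 70.9 and 59.5 in KO Th22. Here the KO libraries numbered 1 were not set apart from those numbered 2. When cluster 1 was left out of the library sums, the Pim2 difference of KO from WT was -0.48 with an adjusted p of 0.12.

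**Figure D5:**
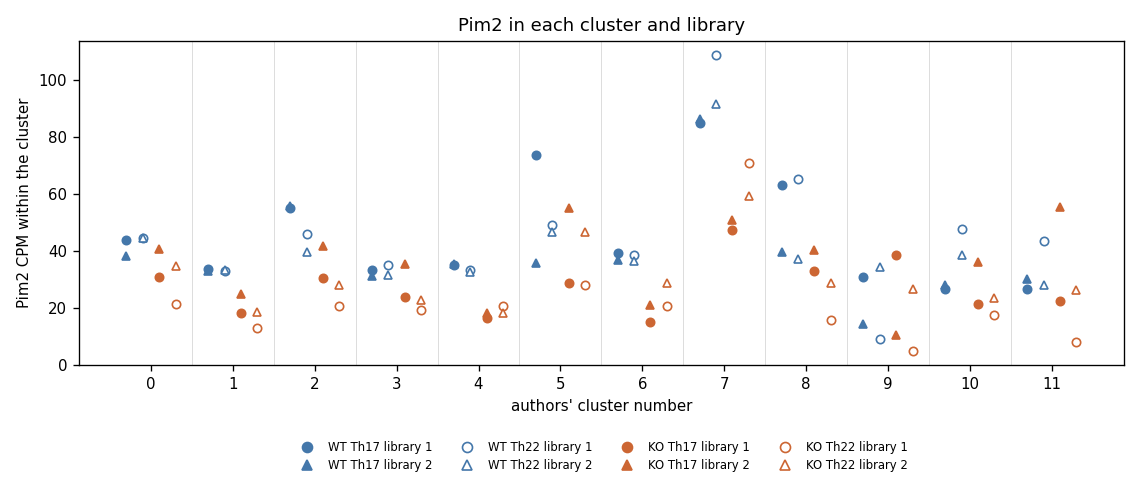
Pim2 CPM within each of the authors' 12 clusters is shown for every library, WT in blue and KO in orange, Th17 filled and Th22 open, library 1 as circles and library 2 as triangles, on a linear axis from 0. In cluster 1 the WT libraries sit at 33.1 to 33.7 CPM above KO libraries at 13.2 to 25.0 CPM, and clusters 9 and 11 hold few cells and scatter widely.

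Besides Pim2, within-cluster tests called Bcl3 once, Socs3 in 2 comparisons and Socs1 in 1. Each member was tested in 10 to 12 clusters in every comparison, and p-values were adjusted only within each cluster and comparison. All clusters come from the same libraries. In cluster 1 Bcl3 was lower in KO over both cultures by a log2 difference of -0.30 (adjusted p = 0.025), at 46.3 to 53.1 CPM in KO against 58.0 to 67.4 in WT, in a comparison where 7.43% of genes were called. Socs3 in cluster 1 was lower in KO than in WT Th17, at 19.7 and 25.9 against 36.7 and 37.2 CPM, a log2 difference of -0.72 (adjusted p = 0.035), in a comparison where 2.17% of genes were called. Socs1 in cluster 8, the interferon-led one, was higher in Th22 than in Th17 over both genotypes. Its levels there were 100.1 and 109.2 CPM in WT Th17, 143.9 and 142.0 in WT Th22, 70.7 and 86.3 in KO Th17, and 111.1 and 118.4 in KO Th22. That is a log2 difference of 0.62 ± 0.14 (SE; adjusted p = 0.015), where 1.69% of genes were called. Socs3 in cluster 8 was higher in KO Th22 than in KO Th17, at 44.1 and 72.8 against 29.4 and 34.9 CPM, by 1.1 on the log2 scale (adjusted p = 0.041), where 0.991% of genes were called. Cish was below 0 in 12 of 12 clusters for Th22 over Th17 across both genotypes, from -0.79 to -0.02, and was called in 0 of them, where 0.0682% to 3.07% of genes were called.

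Receptors and kinases upstream of STAT3 were mostly without a call. Of 14 such genes 12 were tested, and over both cultures 0 were higher and 1 was lower in KO, with a median log2 difference of -0.02. The one was Il6ra, the IL-6 binding chain, at 32.8, 33.3, 26.9 and 27.4 CPM in WT and 21.0, 26.7, 18.1 and 22.3 in KO, a log2 difference of -0.45 ± 0.10 (SE; adjusted p = 0.049). Its highest KO library (26.7 CPM) was just below its lowest WT library (26.9 CPM). Il6st, which encodes gp130, was higher in Th22 than in Th17 over both genotypes, by 0.49 ± 0.09 on the log2 scale (SE; adjusted p = 0.037), from a mean of 7.3 CPM over the 8 libraries.

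Stat5a, which encodes a STAT factor activated by IL-2, was lower in Th22 than in Th17 over both genotypes (log2 difference -0.40, adjusted p = 0.018). It was at 41.0 to 46.9 CPM in Th17 and 30.7 to 36.7 CPM in Th22, and it overlaps the end of Stat3 on the other strand. Of 15 other SOCS genes and negative regulators of JAK-STAT signalling, 0 were called in the genotype test and 0 in the culture test over both genotypes. Socs2, which restrains growth hormone signalling, was at 12.5 to 19.9 CPM, and Pim3, the third PIM kinase, had a log2 difference of 0.18 between KO and WT (adjusted p = 0.33). Of 10 PIM family genes and substrates, 0 were called in the genotype test.

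Of 24 STAT3 targets in helper T cells, a list chosen with earlier results of these data known, 23 were tested. Their median log2 difference over both cultures was -0.16, against 0.00 for all genes. Of the 23, 6 were called lower in KO and 0 higher, where 1.52% of all genes were called lower. The 4 with the smallest adjusted p were Il24, Il17a, Hif1a and Il17f, with log2 differences of -1.97, -1.74, -0.47 and -1.82. Il24, Il17a and Il17f are also leading genes of cluster 2, and fewer cells of that kind and less RNA per cell cannot be told apart in library sums. Il6ra, named above, and Lif (-0.97, named after its value was seen) made up the 6. In Th22 against Th17 over both genotypes, Il22 was higher (1.48) and Il24 (-1.78) and Il17a (-1.08) were lower. The other 20 targets tested were not called between cultures, and the median log2 difference over the 23 was -0.11.

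Of 14 genes induced by IL-2 and STAT5, the group to which Cish belongs, 1 was higher in KO (Lta, 1.05, adjusted p = 0.035) and 0 lower. Il2ra, the high-affinity IL-2 receptor chain, was at 107.2 to 194.0 CPM with no call. Of 10 NF-kB partners of BCL3, Nfkbib was higher in KO (0.35, adjusted p = 0.034), and Nfkb2, Nfkbib and Rel were lower in Th22 than in Th17 (-0.58, -0.47 and -0.47). Nfkb2 encodes p100, the precursor of the p52 subunit that BCL3 binds.

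Genes with the most similar pattern to each member were taken over 96 sums of 1 cluster in 1 library, among 6339 genes, as the Pearson r of log2(CPM + 1). Pim2 was closest to Runx3 (r = 0.75), Pim1 (0.70) and Thy1 (0.69), and Pim1 to Ier3 (0.78), Selplg and Bcl2. Socs3 was closest to Jun (0.61) and Pim1 (0.59). Socs1 was closest to Coro1a (0.77), Cish to Ctsz (0.73), Bcl3 to Ptprc (0.69) and Stat3 to Iqgap1 (0.73). Between members, Socs3 and Cish had r = 0.04. The sums share libraries, clusters and depth, so these values are descriptions.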

How the data were processed

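UMI counts per gene and cell were deposited by the authors in 1 matrix for 8 libraries, unnormalized per the values, with a cell table giving library and cluster. The submitters' processing notes list Cell Ranger 5.0.1, Seurat and the build mm10, without their roles, and no source used here says how the clusters were made. The authors also deposited the percent of mitochondrial UMIs per cell, and cell-cycle scores, which were not used. The members and gene lists were chosen with earlier results of these data known. Of 104660 cells, 101688 had 500 or more genes and no more than 10% mitochondrial UMIs and were kept. Doublets were not called, and the 8% of cells with most UMIs were left out as an alternative. Counts summed per library were compared by edgeR 4.0.16 (quasi-likelihood; R 4.3.3; TMM, filterByExpr, robust, Benjamini-Hochberg at 0.05, 13412 genes). Group comparisons had 4 residual degrees of freedom, and the additive model over both cultures or genotypes had 5. Intervals are at 95%. The SE is the one implied by the test. Beside the members, up to 4 called genes per list with a mean of at least 10 CPM were named, with Gpr65, Tiparp, Il6ra, Il6st, Socs2, Pim3, Stat5a and Il2ra fixed by name; a further gene so fixed is not reported here. Alternatives were DESeq2 1.42.0, RLE factors, no filter, libraries left out, blocks, thinning, a depth covariate and clusters left out. Leaving out both KO libraries numbered 1, or cluster 1, was chosen after seeing the data. In counts simulated for KO against WT over both cultures (13215 genes), 82.0% of genes with a log2 change of 1 and 100.0% with a change of 2 were called. There were 3 false calls. For KO against WT in Th17 (13218 genes), 65.0% and 93.9% were called, with 6 false calls. Changes as small as those of the members in library sums were not simulated, and neither was a difference by library number.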

Additional observations from a re-analysis of the deposited data

Results flagged for a closer look

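Socs1 in KO Th22 library 1 was at 61.5 CPM, while the other 3 Th22 libraries were at 109.1 to 115.0 CPM. The gap to the nearest library was 0.889 of the whole range, above the 95% critical value for 4 samples. In all, 28 groups of 4 libraries were checked, 4 for each member, and chance alone marks about 1 in 20. The same library had Socs3, Pim1 and Pim2 levels below the other Th22 libraries, and the cause was not tested.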

How the results depend on the processing

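Over both cultures, 1 member (Pim2) was called for KO against WT. None was called (0) with the 2 libraries of each genotype and number summed (replicate block; adjusted p = 0.447), after thinning (0.069), without the 8% of cells with most UMIs (0.059), without clusters 7, 9 and 11 (0.059) or without cluster 1 (0.12), and leaving out 1 library each gave 0 to 1. The library numbers are not stated to mark a shared animal. The log2 differences between libraries 1 and 2 correlated at 0.57 between the KO cultures and 0.23 between the WT cultures over genes. With genotype and number as a replicate block, Th22 against Th17 gave 2 members in WT (Stat3 and Socs1), 3 in KO (Cish, Socs3 and Socs1), 1 over both genotypes (Socs1), and 1 for the interaction (Socs3, 0.48, adjusted p = 0.013). Without both KO libraries numbered 1, the culture test over both genotypes gave 1 (Socs1).
Estimates that changed sign were all uncalled. For KO against WT in Th22, the log2 difference was -0.021 for Stat3 and 0.076 for Pim1 with median depth as a covariate, 0.075 for Socs1 and 0.22 for Pim1 without both KO libraries numbered 1, -0.0074 for Cish without clusters 3 and 10, and 0.0090 for Pim1 without cluster 1. Leaving out 1 library each gave -0.82 to 0.081 for Socs1, -0.31 to 0.38 for Socs3, -0.068 to 0.11 for Cish, -0.23 to 0.0014 for Bcl3 and -0.40 to 0.23 for Pim1. Over both cultures, Socs3 and Pim1 were at 0.10 and 0.10 without both KO libraries numbered 1. For Th22 against Th17, Pim1 over both genotypes was at -9.3e-05 without both KO libraries numbered 1, at -0.011 without cluster 1 and from -0.14 to 0.11 with 1 library left out, Pim2 at 0.018 with depth as a covariate and from -0.16 to 0.041 with 1 library left out, and Socs3 in WT from -0.070 to 0.0039. Of the other values of single members, 630 kept direction and side of the threshold. Over all genes, leaving out 1 library moved the count for KO against WT over both cultures from 393 to between 50 and 541, and for Th22 against Th17 over both genotypes from 260 to between 54 and 247. Apart from blocks, the other alternatives gave 170 to 1936 and 86 to 571. Within Th17, Th22, WT and KO, where 25, 20, 20 and 16 genes were called, they gave 4 to 247, 4 to 304, 12 to 226 and 0 to 184, and 1 library left out gave 3 to 54, 1 to 14, 0 to 28 and 6 to 12. With the block by genotype and number the culture tests called 1733 genes in WT, 2269 in KO and 1592 over both, and the interaction 550, and the summed fit called 6 for KO against WT. Precision is limited by 2 libraries per group and, in clusters 9 and 11, by few cells.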
